A study of Mus musculus with 18 samples.

Results

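The cytosolic ribosomal proteins are the protein subunits of the ribosome that translates nuclear-encoded mRNA. Their genes were taken from the annotation of a mouse bead array by name, as symbols that begin with Rpl or Rps, or with Rplp for the P stalk, followed by a number and at most a short suffix. The rule found 61 genes of the 19057 with a single symbol, measured by 90 of the 45281 probes, and the brightest probe stood for a gene with several. The set takes in paralogues with restricted expression, such as the muscle gene Rpl3l. The name rule used no expression difference, but the set was chosen with earlier results of these data known. Several other subunits, such as Rpl5, Rpl10, Rpl11 and Rps18, were not analysed here.

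The cells came from C57Bl/6 mice with the genotype Fapbl-Cre;Apc2lox14/+;tet-KrasLSL-G12D/+ (FatK), aged 17 weeks, and all groups share this genotype. Per the labels they were tumour inducing cells from primary colon tumours of mice labelled 1, 5 and 7, captured with a magnetic-bead antibody to the surface protein CDCP1 and maintained with doxycycline. One arm received a short hairpin RNA (shRNA) against the transcription factor Foxd3 for 24 h, and the control arm was untreated, with no control shRNA. Each mouse label had 3 arrays per arm, giving 6 groups and 18 arrays. What separates the 3 arrays of a group is not stated in the labels. P-values within a mouse label thus measure array-to-array spread, pooled over the 6 groups. That spread may be technical for some groups and, where a label mixes animals, is not.

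A ribosome has a small subunit, which holds the mRNA and decodes it, and a large subunit, which joins the amino acids. The P stalk on the large subunit, built of Rplp0, Rplp1 and Rplp2, recruits elongation factors. Most of these mRNAs start with a run of pyrimidines, the 5′ terminal oligopyrimidine (TOP) motif, through which mTORC1 signalling controls their translation together. In intestinal tumours ribosome production is known as a downstream output of MYC and mTORC1. Some subunits have paralogues that replace the common copy in certain tissues, of which Rpl3l in skeletal muscle and heart is the best known.

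The sequences around the transcription starts are shown because the TOP run is the feature these genes are known to share and the rule did not use it. Promoter windows from RefSeq (GRCm38.p6) matched 50 of the 61 genes, 60 windows in all. A run of at least 7 C or T within 15 bases of the start was present in 48.3% of these windows and in 18.6% of the 32851 windows of all genes. In the next lines, capitals mark the longest run of C and T in the 30 bases centred on the start. The lines show a selection of the members described further on, with each annotated start of Rpl19, Rpl22 and Rps27l. Matched windows of others described below, such as Rps10, Rpl4 and Rplp0, are not printed.
Rps6, chr4:86857353-86857382, minus strand: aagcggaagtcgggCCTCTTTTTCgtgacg
Rpl7a, chr2:26910792-26910821, plus strand: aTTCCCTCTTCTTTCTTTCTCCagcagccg
Rpl13a, chr7:45128731-45128760, minus strand: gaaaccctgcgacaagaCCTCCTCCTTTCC
Rplp2, chr7:141447636-141447665, plus strand: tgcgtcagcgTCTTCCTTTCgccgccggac
Rpl22l1, chr3:28805493-28805522, plus strand: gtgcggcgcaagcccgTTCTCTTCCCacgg
Rpl19, chr11:98026695-98026724, plus strand: tgaccaaacgCCCTCactgcgcatgtgcgc
Rpl19, chr11:98026909-98026938, plus strand: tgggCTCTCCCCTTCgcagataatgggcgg
Rpl22, chr4:152324421-152324450, plus strand: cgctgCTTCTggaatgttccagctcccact
Rpl22, chr4:152325711-152325740, plus strand: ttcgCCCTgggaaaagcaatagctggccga
Rps27l, chr9:66946071-66946100, plus strand: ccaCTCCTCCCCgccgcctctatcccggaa
Rps27l, chr9:66946398-66946427, plus strand: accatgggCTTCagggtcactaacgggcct
Rps4x, chrX:102189377-102189406, minus strand: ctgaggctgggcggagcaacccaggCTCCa
Rps3a1, chr3:86142654-86142683, minus strand: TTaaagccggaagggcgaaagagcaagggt
The longest runs in these windows had 2 (Rps3a1) to 21 (Rpl7a) bases, and the median over all the members' windows was 6, against 4 over all genes. The whole 300-base window held CCGGAAG, the core bound by Ets factors, on either strand in 38.3% of the members' windows and in 8.86% of all windows. AAGATGGC, an element known from Yy1 sites, was in 6.67% against 2.75%, and TATAAA in 10% against 13.6%. CAGCTG, an E-box form known from muscle genes, was in 5% against 16.3%. One of the members' windows with CAGCTG was that of Rpl3l, whose 250 bases upstream of an annotated start are printed here with that match in capitals, while those upstream of another annotated start had no match.
Rpl3l, chr17:24727576-24727825, plus strand: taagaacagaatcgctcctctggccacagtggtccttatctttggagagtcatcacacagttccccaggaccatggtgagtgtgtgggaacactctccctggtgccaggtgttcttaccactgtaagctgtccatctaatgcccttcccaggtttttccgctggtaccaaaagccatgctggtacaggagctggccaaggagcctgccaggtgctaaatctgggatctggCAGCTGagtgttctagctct
These matches describe letters in fixed windows. They are not evidence of binding, and overlaps between the motifs were not resolved.

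The arrays of all 3 mouse labels went against those labels. Cdcp1, the gene of the capture protein, was detected on 4 of 18 arrays, with signals of 0.62 to 16.9. Of 10 intestinal epithelium markers, 1 to 3 were detected on all 3 arrays of a group, and Epcam was detected on 0 of 18 arrays. The summed signal of 10 brown fat markers was 49474 to 79948 on the arrays of mouse 1, 19756 to 35999 in mouse 5 and 242 to 659 in mouse 7. In mouse 5, 5 of these 10 markers were detected on all 3 arrays of each group. The brown fat gene Ucp1 had signals of 4238 to 15217 in mouse 1 but of -19.0 to 23.6 in mouse 5. Skeletal muscle markers summed to 170120 to 218651 in mouse 5, and liver markers to 78876 to 100567 in mouse 7. In mice 1 and 5, Xist of female cells was present on the shFoxd3 arrays and on array 2 of the untreated cells, and the Y-linked Eif2s3y on untreated arrays 1 and 3. Each of these labels thus held RNA of more than 1 animal, and in them the shRNA and the sex of the animal cannot be told apart except against array 2. Medians or counts of the set that touch this split, and the change of Rpl3l in mouse 1, are given with and without those arrays. Most other values of single genes are given from all arrays only. Foxd3 was detected on 1 of 18 arrays, with signals of -10.3 to 16.5, so its level was not measurable and the arrays do not show whether the target changed.

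Of the 61 members, 57 passed a filter of detection on at least 3 arrays and were tested, with 21 genes of the small subunit, 27 of the large subunit, 3 of the P stalk and 6 paralogues. The paralogues were Rpl3l, Rpl22l1, Rpl39l, Rpl7l1, Rps27l and Rps4l, the last annotated in RefSeq as a transcribed pseudogene. The 4 members below the filter were Rpl6, detected on 0 arrays, Rpl14 on 1, and Rpl17 and Rps20 on 2 each. A low signal of a probe is no measure of the gene against other genes, and no level is compared here between probes. Of the tested members 53 were detected on all 18 arrays. The other 4 were Rps15a on 16, Rpl3l on 13, Rps23 on 12 and Rpl39l on 4. Ribosomal protein genes have many processed pseudogenes in mice, and whether a probe also picked up such copies was not tested.

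**Figure D1:**
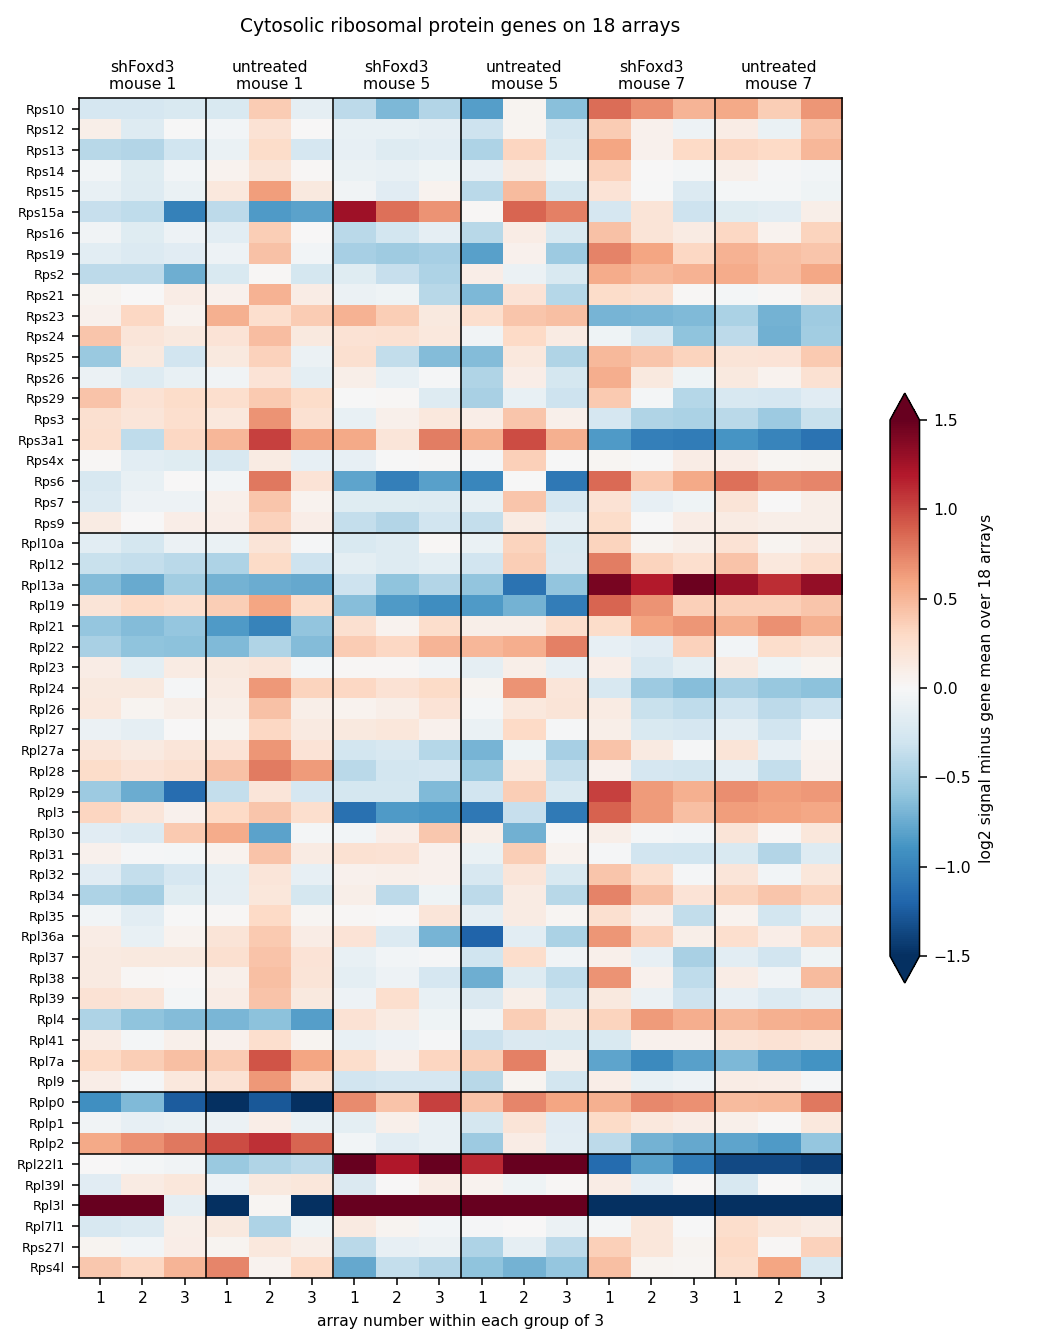
Normalised log2 signal of the 57 tested members on 18 arrays, each row as the difference from its own mean, with rows in the order small subunit, large subunit, P stalk and paralogues. Rpl3l and Rpl22l1 are high on all arrays of mouse 5, Rpl13a on all arrays of mouse 7, and untreated array 2 is redder than its neighbours for most rows in mice 1 and 5.

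The question of the series was what changes with Foxd3 shRNA. Across the 3 mice, 0 of 57 members passed the threshold, an adjusted p of 0.05 in limma, where 0.105% of all 24817 tested probes did. The median change of the members was -0.03, against -0.01 over all probes, and 23 of 57 changes were positive. Leaving out Rpl3l, the changes ran from -0.32 to 0.28. The lowest adjusted p of any member was 0.79, and 1 member had an unadjusted p below 0.05, as did 1425 of the 24817 probes. On simulated data of the same size the fit found 22% of changes of 0.5 and 96% of changes of 1. That simulation held only array-to-array spread, with the same change in every mouse. Where real changes differ between mice, the share found may be lower and is not known. Changes of less than about 2-fold could thus be missed, as could larger ones of genes that vary more or whose change differs between mice. Rpl3l, at 1.31 ± 0.65, did not pass.

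That 1 member was Rps6, the small subunit protein phosphorylated by S6 kinase below mTORC1. Its change was -0.26 ± 0.10 (moderated SE, n = 3 labels, adjusted p = 0.79). In mouse 1 its signals were 2981, 2898 and 3232 with shRNA and 2652, 5049 and 3135 without. In mouse 5 they were 1587, 1878 and 2045 with shRNA and 1441, 3476 and 1287 without, and in mouse 7 they were 7937, 5778 and 5635 with it and 8487, 7701 and 7484 without. The arms overlapped in all 3 mice, and in mice 1 and 5 the highest signal was that of untreated array 2. The largest change across mice was that of Rpl3l, at 1.31 ± 0.65 (adjusted p = 0.79).

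**Figure D2:**
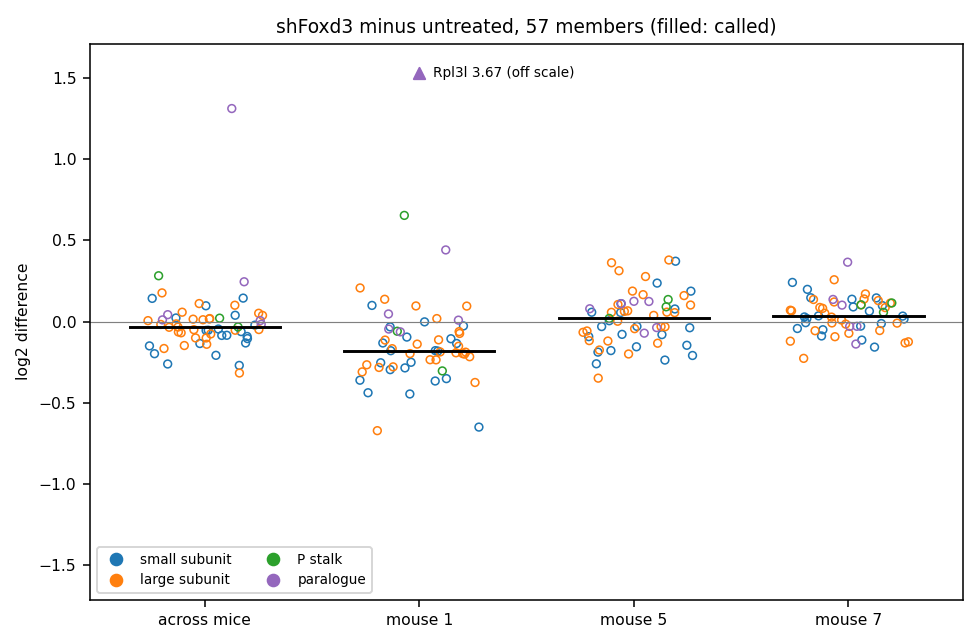
Change of each tested member with Foxd3 shRNA (log2, shFoxd3 minus untreated), across mice and within each mouse label, coloured by role, with black lines at the medians of -0.03, -0.18, 0.02 and 0.04. The filled triangle is Rpl3l in mouse 1, drawn off scale at 3.67, the single member past the threshold.

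Within mouse 1, Rpl3l was higher with the shRNA, and no other member passed the test in either direction. Of 57 members 1 was called, Rpl3l, where 0.745% of all probes were called, 0.584% higher and 0.161% lower. The median was -0.18 against -0.02 over all probes, and 46 of 57 changes were negative. Without untreated array 2 the median was -0.08, or -0.06 relative to that of all probes. The arms did not overlap for 18 members, 16 lower and 2 higher with shRNA, against 14.1% of all probes. An unadjusted p below 0.05 was found for 10 members and for 2477 of the 24817 probes.

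Among small subunit genes 20 of 21 had a negative change in mouse 1, with a median of -0.18. Rps3a1, whose product sits near the mRNA exit, had signals of 1408, 777 and 1279 with shRNA and 1281, 1955 and 1385 without. After normalisation the arms did not overlap, and the change was -0.65 ± 0.19 (adjusted p = 0.158). Rps2, a protein of the mRNA entry, had a change of -0.35 ± 0.11 (adjusted p = 0.235), and Rps15, near the decoding centre, -0.44 ± 0.18 (adjusted p = 0.4).

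In the large subunit 22 of 27 had a negative change in mouse 1, with a median of -0.19. Rpl29, a small basic protein of the subunit surface, had the most negative value, -0.67 ± 0.19 (adjusted p = 0.147). Its signals were 1438, 1082 and 826 with shRNA and 1268, 1946 and 1354 without, so the raw arms overlapped and the normalised ones did not. In the P stalk Rplp0 and Rplp2 had opposite signs, 0.65 ± 0.19 (adjusted p = 0.159) and -0.30 ± 0.14 (adjusted p = 0.486), and neither passed.

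Rpl3l, the muscle paralogue of the core protein Rpl3, was the single call of mouse 1. Its signals were 2209.9, 1825 and 415 with shRNA and 16.5, 441 and 35.3 without. The highest untreated array, array 2, lay above the lowest shFoxd3 array, so the arms overlapped. The change was 3.67 ± 0.67, or 12.8-fold (adjusted p = 0.0102). This SE came from a spread shared by all 6 groups. Normalised log2 values ran from 8.90 to 11.11 with shRNA and from 5.16 to 9.07 without in mouse 1. They ran only from 13.54 to 13.89 in mouse 5 and from 4.68 to 5.11 in mouse 7. The SE was thus smaller than the arrays of mouse 1 alone would give, and the adjusted p rests on it. Without shFoxd3 array 1 or 2, or untreated array 3, the adjusted p was 0.0881, 0.0824 and 0.0834. Without untreated arrays 1 and 3, those with Eif2s3y, the change was 1.28 (adjusted p = 0.254), and without array 2 it was 4.87 (adjusted p = 1.3e-06).

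Muscle transcripts moved with it. The 10 skeletal muscle markers summed to 25616, 79791 and 84264 from the lowest to the highest shFoxd3 array of mouse 1 and to 66.3, 1633 and 18429 on the untreated arrays. Of these markers 8 of 10 were called higher with shRNA in mouse 1, with a median of 4.53. The fast myosin Myh4 had signals of 3961, 3227 and 1129 with shRNA and -1.32, 525 and 80.6 without. Both Rpl3l and Myh4 were lowest on untreated array 1 and highest on shFoxd3 array 1. Eef1a2, the elongation factor of muscle and neurons, had a change of 3.27 ± 0.82 (adjusted p = 0.0776). The part of muscle RNA in the Rpl3l value was not tested. In a bulk sample, fewer cells of a type and less RNA per cell cannot be told apart. The common copy Rpl3 had a change of -0.14 ± 0.16 (adjusted p = 0.877) in mouse 1.

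In mouse 5, 0 of 57 members were called (0.25% of all probes), with a median of 0.02 and 31 positive changes. The arms did not overlap for 1 member, Rpl41, against 12.2% of all probes. Rpl41, the smallest protein of the large subunit, had signals of 20199, 24999.7 and 24879 with shRNA and 15613, 20882 and 15863 without. The raw arms overlapped, and the change was 0.19 ± 0.09 (adjusted p = 0.489).

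In mouse 7, 0 of 57 were called (0.814% of all probes), with a median of 0.04 and 35 positive changes. The arms did not overlap for 2 members, Rpl41 and Rpl22l1, against 17.8% of all probes. Rpl41 had signals of 19086, 19091 and 17909 with shRNA and 23863, 23845 and 20184 without. All 3 shFoxd3 arrays lay below the untreated ones, the opposite of mouse 5, with a change of -0.23 ± 0.09 (adjusted p = 0.426). Rpl22l1, the paralogue of Rpl22, had a change of 0.37 ± 0.16 (adjusted p = 0.474). The values of mice 1, 5 and 7 each rest on their own untreated arrays.

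The difference of the shRNA effect between mice was tested as an interaction, which called 0 of 57 members and 0.222% of all probes. Rpl3l had the lowest unadjusted p, 0.00166 (adjusted p = 0.163), with a largest difference between mice of 3.55. Rpl41 followed with a difference of 0.41 (adjusted p = 0.365), then Rpl29 with 0.74 (adjusted p = 0.473). Rps3a1, Rpl22l1 and Rplp0 had adjusted p-values of 0.518, 0.544 and 0.551.

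The medians within mice 1 and 5 depended on 1 untreated array. Array 2 held the highest of the 3 untreated values for 48 of 57 members in mouse 1 and for 47 of 57 in mouse 5, where 36.2% and 36.5% of all probes were highest on it. In mouse 7, shFoxd3 array 1 held the highest of its group for 46 of 57, against 37% of all probes. The level of the members on an array was taken as the median, over members other than Rpl3l, of the log2 difference from the gene mean. On untreated arrays 1, 2 and 3 it was 0.06, 0.30 and 0.04 in mouse 1 and -0.28, 0.13 and -0.22 in mouse 5. For the shFoxd3 arrays of mouse 1 the levels were -0.02, -0.12 and -0.003. Those of mouse 5 had levels of -0.10, -0.08 and -0.07. In mouse 5 the treated arrays thus lay between array 2 and the other untreated arrays.

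**Figure D3:**
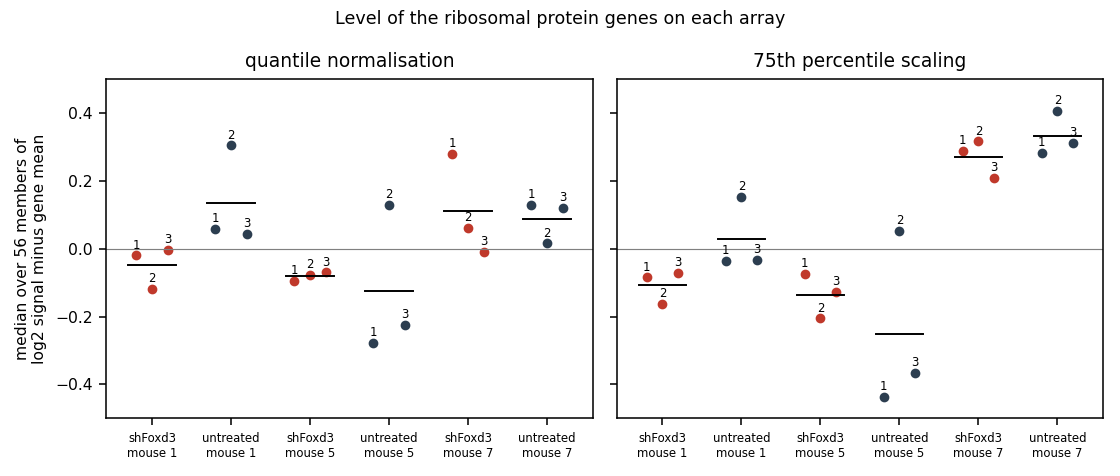
Median over 56 members (without Rpl3l) of the log2 signal minus the gene mean on each array, after quantile normalisation on the left and after scaling to the 75th percentile on the right, with points numbered by array and lines at group means. Untreated array 2 stands at 0.30 in mouse 1 and 0.13 in mouse 5 under quantile normalisation, above the other arrays of its group, and the arrays of mouse 7 stand higher in the right panel.

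Without untreated array 2 of mice 1 and 5, the median change was -0.08 in mouse 1 with 16 positive members, 0.14 in mouse 5 with 46 positive members, and 0.03 across mice with 38 positive members. Without arrays 1 and 3 instead, the medians were -0.35, -0.23 and -0.15. The members called then numbered 12 in mouse 1, all lower, and 9 in mouse 5, of which 7 were lower, while 4.2% and 6.39% of all probes were called. Across mice 0 members were called either way. The sign of the median in mouse 5 and across mice therefore changed with the untreated arrays used, and in each of these fits a group rested on 1 or 2 arrays.

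The members moved together between arrays of a group. The mean pairwise correlation of their deviations from the group means, over 18 arrays, was 0.358 for the 57 members and 0.621 for the 45 members with a mean signal of at least 1000. Over all tested probes it was 0.000418, and over all probes of that brightness 0.00508. The correlations are descriptions across probes that share arrays, and probes are not independent replicates. The median spread within groups was 0.18 (SD, log2) for members and 0.21 for all probes.

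Between the untreated cells of the 3 mouse labels, a comparison that gives the scale for the shRNA values, many members differed. In the main fit the shares called were near those of all probes, with a narrower median range. The range over the 3 group means had a median of 0.59 for the members against 0.85 for all tested probes on the log2 scale. It reached 1, or 2-fold, for 15 of 57 members (26.3%), against 43.7% of all probes. The members with the widest ranges were Rpl3l, undetected in mouse 7 and at least 438-fold higher in mouse 5, Rpl22l1 (2.84), Rplp0 (2.18), Rpl13a (2.0), Rplp2 (1.72) and Rps3a1 (1.71). The narrowest were Rps14 (0.11), Rpl10a (0.12), Rpl23 and Rps7 (both 0.16). The mouse label accounted for a median of 62.4% of the variance of a member and 74% of that of any probe, and the shRNA for 1.13% and 0.989%. At a mean signal of at least 1000 the gap was wider. There the mouse label accounted for a median of 58.7% for the 45 members and 92.7% for all probes. These figures hold for 3 labels alone, and each pair of comparisons shares a group.

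Mouse 5 against mouse 1 called 25 of 57 members, 7 higher and 18 lower, where 42% of all probes were called, 18.8% higher and 23.2% lower. The median was -0.15 against -0.03 over all probes. Without untreated array 2 of these mice it was -0.19, with 7 members higher and 20 lower, where 39.4% of all probes were called. Without arrays 1 and 3 instead it was -0.16 against -0.03 over all probes. Mouse 7 against mouse 1 called 28, 11 higher and 17 lower, where 55.9% of all probes were called, 25% higher and 30.8% lower, with a median of -0.04 against -0.08. Mouse 7 against mouse 5 called 35, 22 higher and 13 lower, where 63.6% of all probes were called, 30.8% higher and 32.8% lower, with a median of 0.20 against -0.05. In the main fit of all arrays the shares of members called, 43.9%, 49.1% and 61.4%, were thus near the background. The deposited series matrix, used as an alternative, gave shares below the background. The groups did not overlap for 20, 30 and 30 members, against 46.4%, 64.7% and 68.1% of all probes. Called and at least 2-fold were 9, 8 and 9 members, against 18.9%, 27.6% and 33.8% of all probes.

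**Figure D4:**
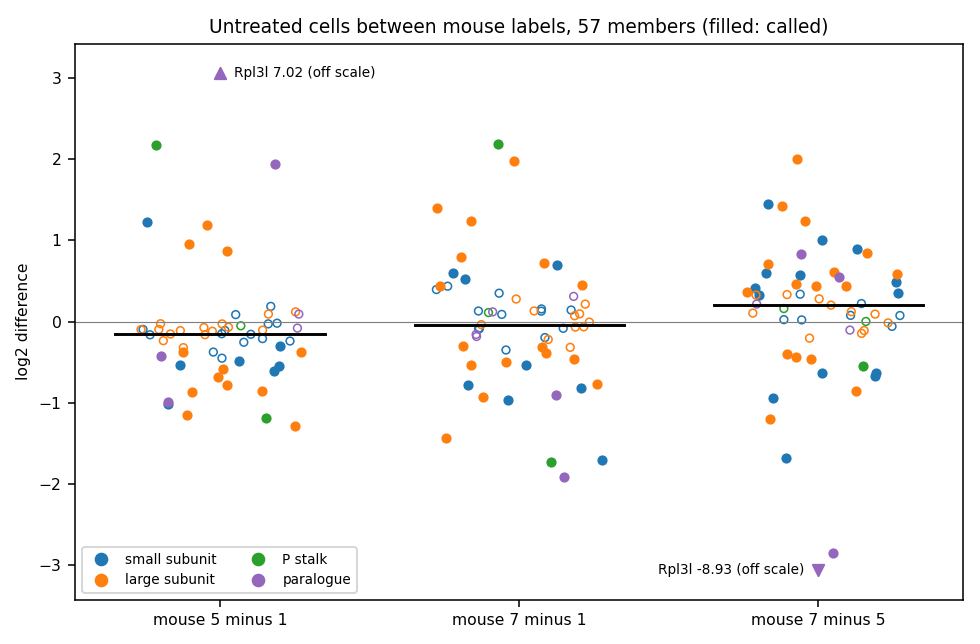
Differences of the 57 tested members between untreated cells of the mouse labels (log2), filled where the adjusted p passed 0.05 and coloured by role, with black lines at the medians of -0.15, -0.04 and 0.20. Most points lie within 1 of 0, and Rpl3l is drawn off scale at 7.02 for mouse 5 against 1 and, with its probe not detected in mouse 7, at the lower edge for mouse 7 against 5.

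The balance of higher and lower members involving mouse 7 depended on the scaling. Scaling each array to its 75th percentile gave 25 higher and 11 lower members for mouse 7 against mouse 1, with a median of 0.27. Against mouse 5 it gave 36 higher and 8 lower, with a median of 0.53. Of all probes, 53.9% and 64% were called under this scaling. It moved the median of all probes in the last comparison from -0.05 to -0.17, so that the members' median minus that of all probes was 0.69 in place of 0.26. Without untreated array 2 of mice 1 and 5 the counts were 16 higher and 13 lower against mouse 1 and 32 and 12 against mouse 5. Of all probes, 54.7% and 62.2% were called without that array. Without arrays 1 and 3, which leaves 1 untreated array each in mice 1 and 5, the members' medians were -0.15 and -0.07. Those of all probes were -0.07 and -0.04. The direction of the set as a whole was therefore not settled for mouse 7.

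Within the small subunit, 1 gene was higher and 6 were lower in mouse 5 than in mouse 1, 3 were higher and 5 lower in mouse 7 than in mouse 1, and 9 were higher and 5 lower in mouse 7 than in mouse 5. Rps3a1 was lowest in mouse 7. Its untreated signals were 1281, 1955 and 1385 in mouse 1, 1397, 2297 and 1326 in mouse 5, and 890, 721 and 687 in mouse 7. All 3 arrays of mouse 7 lay below all others, and the differences were -1.71 ± 0.19 from mouse 1 (adjusted p = 3.25e-07) and -1.68 ± 0.19 from mouse 5 (adjusted p = 2.95e-07). The difference between mice 5 and 1 was -0.03 ± 0.19 (adjusted p = 0.935).

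Rps6 was lowest in mouse 5 and highest in mouse 7, with the untreated signals given above. Mouse 7 exceeded mouse 5 by 1.45 ± 0.23, or 2.72-fold (adjusted p = 1.68e-05), with no overlap, and mouse 5 lay below mouse 1 by 2.01-fold (-1.01 ± 0.23, adjusted p = 0.00122) with overlap through array 2. Rps10, at the beak of the small subunit, was called in all 3 comparisons. Its signals were 2417, 4004 and 2620.0 in mouse 1, 1673, 3785 and 1803 in mouse 5, and 7522, 6589.7 and 7442 in mouse 7. All raw signals of mouse 7 stood above the others. The differences were 1.00 ± 0.19 from mouse 5 (adjusted p = 0.000107) and 0.52 ± 0.19 from mouse 1 (adjusted p = 0.0225), the latter with overlap after normalisation.

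Other small subunit genes differed in single directions. Rps15a was higher in mouse 5 than in mouse 1 by 1.23 ± 0.24 (adjusted p = 0.000371), from signals of 20.8, 10.1 and 10.5 to 35, 87.7 and 61.1, which do not overlap but are close to background. Rps23, which lies at the decoding centre, had signals of 26.1 to 37.5 on the untreated arrays of mice 1 and 5 and of -8.88 to 3.02 in mouse 7, where its probe was not detected on any array. It was at least 1.55-fold lower in mouse 7 than in mouse 1 (adjusted p = 3.87e-06) and at least 1.53-fold lower than in mouse 5 (adjusted p = 3.79e-06). Here and below, such a bound sets the brighter group against the lowest detected signal. Rps3, a protein of the mRNA entry that also acts in DNA repair, was lower in mouse 7 than in mouse 1, with a difference of -0.78 ± 0.13 (adjusted p = 5.19e-05). Rps2 was higher there, with a difference of 0.69 ± 0.11 (adjusted p = 4.08e-05). Rps14, Rps15, Rps4x and Rps7 passed in none of the 3 comparisons.

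Within the large subunit, 3 genes were higher and 9 lower in mouse 5 than in mouse 1, 7 were higher and 9 lower in mouse 7 than in mouse 1, and 11 were higher and 5 lower in mouse 7 than in mouse 5. Rpl13a, known outside the ribosome for silencing translation of inflammatory mRNAs, was raised in mouse 7 against both other mice. Its untreated signals were 185, 196 and 179 in mouse 1, 213, 176 and 195 in mouse 5, and 1385, 1072 and 1337 in mouse 7. The first 2 mice overlapped and the third stood apart, by 1.98 ± 0.14 (3.94-fold, adjusted p = 8.7e-10) and 2.0 ± 0.14 (4.01-fold, adjusted p = 4.95e-10).

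Rpl19, which forms a bridge to the small subunit, was lowest in mouse 5. The signals were 1378, 1748 and 1298 in mouse 1, 650.5, 849.6 and 523 in mouse 5, and 2597, 2393 and 2508 in mouse 7. No array of mouse 5 reached those of the other mice, with differences of -1.28 ± 0.13 from mouse 1 (adjusted p = 2e-07) and of 1.25 ± 0.13 for mouse 7 over mouse 5 (adjusted p = 1.31e-07). Although the raw signals of mouse 7 were above those of mouse 1, the normalised difference was -0.04 ± 0.13 (adjusted p = 0.84).

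Rpl3, which reaches towards the peptidyl transferase centre, was also lowest in mouse 5. Its signals were 6372, 7514 and 6114 in mouse 1, 2376, 4792 and 2298 in mouse 5, and 12273, 11818 and 11004 in mouse 7. The 3 mice did not overlap in raw signal, and mouse 5 was 2.22-fold below mouse 1 (-1.15 ± 0.16, adjusted p = 6.67e-06) and 2.69-fold below mouse 7 (adjusted p = 1.86e-07). The difference between mice 7 and 1 was 0.28 ± 0.16 (adjusted p = 0.141). Rpl28 was lower in mouse 5 than in mouse 1, with a difference of -0.87 ± 0.15 (adjusted p = 0.000132).

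Rpl7a went the other way, lowest in mouse 7. It had signals of 3099.6, 4749 and 3519 in mouse 1, 3065, 4999 and 2456 in mouse 5, and 2745, 2268 and 2194 in mouse 7. The raw values of mice 5 and 7 overlapped. After normalisation they did not, with differences of -1.43 ± 0.15 from mouse 1 (adjusted p = 1.54e-07) and -1.20 ± 0.15 from mouse 5 (adjusted p = 1.21e-06).

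Rpl21 and Rpl4, the latter a protein that lines the exit tunnel, were lowest in mouse 1 and were called in all 3 comparisons. Rpl4 had signals of 226, 261 and 207 in mouse 1, 377, 605 and 404 in mouse 5, and 922, 861 and 897 in mouse 7, without overlap. It differed by 0.87 ± 0.13 between mice 5 and 1 (adjusted p = 2.01e-05) and by 1.23 ± 0.13 between mice 7 and 1 (adjusted p = 1.42e-07). Rpl21 differed by 0.96 ± 0.15 and 1.40 ± 0.15 (adjusted p = 4.66e-05 and 2.88e-07). Rpl29 was higher in mouse 7 than in mouse 1 by 0.80 ± 0.19 (adjusted p = 0.00164). Rpl10a, Rpl23, Rpl30, Rpl32 and Rpl35 passed in none of the 3 comparisons.

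The 3 stalk genes differed in their calls. Rplp2, whose product forms a dimer with that of Rplp1 at the tip, was highest in mouse 1. It had signals of 20494, 22934 and 18904 in mouse 1, 5859, 11567 and 7430.1 in mouse 5, and 8453, 7969 and 9187 in mouse 7. Mouse 1 stood above all others, while the raw signals of mice 5 and 7 overlapped. The differences from mouse 1 were -1.18 ± 0.14 for mouse 5 (adjusted p = 1.1e-06) and -1.72 ± 0.14 for mouse 7 (adjusted p = 3.78e-09). The difference of mouse 7 from mouse 5 was -0.54 ± 0.14 (adjusted p = 0.00238), and -0.03 under scaling to the 75th percentile (adjusted p = 0.874).

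Rplp0, the base of the stalk, had signals of 16.8, 32.3 and 12.6 in mouse 1, 122, 183 and 127 in mouse 5, and 184, 156 and 213 in mouse 7. Mouse 1 lay below both others without overlap, 4.53-fold below mouse 5 (2.18 ± 0.19, adjusted p = 2.33e-08) and 4.54-fold below mouse 7 (adjusted p = 1.3e-08). A second Rplp0 probe, dimmer still, differed by 1.5 between mice 5 and 1 but was not detected on any untreated array of mouse 7. Rplp1 passed in no comparison, with differences of -0.05 to 0.16.

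**Figure D5:**
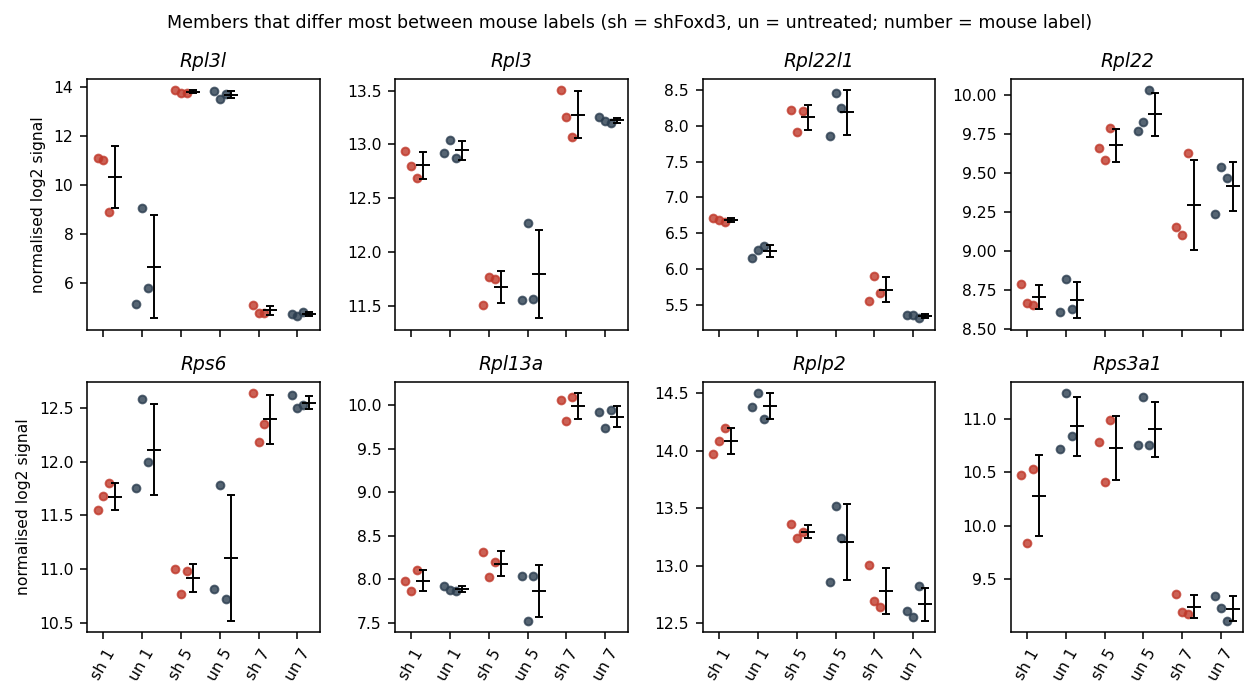
Normalised log2 signal of 8 members by group (red shFoxd3, dark untreated; the axis of each panel has its own range), with points for arrays and the mean ± SD of 3 arrays beside them. Rpl3l and Rpl22l1 are highest in mouse 5, Rpl3 and Rps6 lowest there, Rpl13a is highest and Rps3a1 lowest in mouse 7, and Rplp2 is highest in mouse 1.

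Among the paralogues, Rpl3l had the widest differences of the set. Rpl3l lies at 24727826 to 24736143 of chromosome 17 (GRCm38.p6). Its untreated signals were 16.5, 441 and 35.3 in mouse 1, 12469.7, 11876 and 11288 in mouse 5, and 5.96, 1.8 and 7.94 in mouse 7. Every array of mouse 5 exceeded every array of the others. Mouse 5 was above mouse 1 by 7.02 ± 0.67, or 130-fold (adjusted p = 6.44e-08), again with an SE shared by all groups. In mouse 7 Rpl3l was detected on none of the untreated arrays, and mouse 5 was at least 438-fold higher (adjusted p = 8.6e-10).

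Against mouse 1, the level of Rpl3l in mouse 7 was at least 3.37-fold lower (adjusted p = 0.0214). That call rested on untreated array 2 of mouse 1: without array 2 of mice 1 and 5 the difference was -0.71 (adjusted p = 0.171). Muscle markers moved with Rpl3l across mice. All 10 muscle markers were called higher in mouse 5 than in mouse 1, with a median of 6.86, and all 10 lower in mouse 7, where 9 of 10 were undetected on all 3 untreated arrays, than in mouse 5. The defining markers Myh4 and Acta1 had signals of -5.31 to -2.77 and of -10.9 to -8.36 on the untreated arrays of mouse 7. Where Rpl3l was high Rpl3 was low, in mouse 5, a description of 3 labels. The part of the tissue of origin in these values was not tested.

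Rpl22l1, which is known to compete with Rpl22 in binding RNA, was also highest in mouse 5. Its untreated signals were 49.2, 60.4 and 56.1 in mouse 1, 188, 343 and 229 in mouse 5, and 27.4, 22.5 and 22.5 in mouse 7. The 3 mice did not overlap. Mouse 5 exceeded mouse 1 by 1.94 ± 0.16, or 3.84-fold (adjusted p = 9.81e-09), and mouse 7 lay below mouse 5 by 7.18-fold (-2.84 ± 0.16, adjusted p = 1.42e-11) and below mouse 1 by 1.87-fold (adjusted p = 9.71e-05).

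The common copy Rpl22 was not a mirror of it. Its signals were 302, 379 and 304 in mouse 1, 725, 887 and 784 in mouse 5, and 829.7, 924 and 906 in mouse 7. Mouse 1 lay below both others, with differences of 1.19 ± 0.14 (adjusted p = 1.07e-06) and 0.73 ± 0.14 (adjusted p = 0.000204). The difference of mouse 7 from mouse 5 was -0.46 ± 0.14 after quantile normalisation (adjusted p = 0.008), and it turned to 0.03 under scaling to the 75th percentile.

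The remaining paralogues moved less. Rps27l, a p53 target and paralogue of Rps27, was lower in mouse 5 than in mouse 1, at -0.43 ± 0.12 (adjusted p = 0.00736), and higher in mouse 7 than in mouse 5, at 0.55 ± 0.12 (adjusted p = 0.000604). Rps4l had signals of 134, 90.8 and 97.4 in mouse 1, 49.5, 55.1 and 46.5 in mouse 5, and 139.9, 155 and 79 in mouse 7. Mouse 5 lay below both, with a difference of -0.99 ± 0.21 from mouse 1 (adjusted p = 0.000747) and of 0.84 ± 0.21 for mouse 7 over mouse 5 (adjusted p = 0.00193). The X-linked common copy Rps4x passed in no comparison, with differences of -0.06 to 0.19. Rpl7l1 and Rpl39l passed in none, and Rpl39l, known from testis, was detected on 4 arrays, all of mouse 1. Rpl39, its common copy, was lower in mice 5 and 7 than in mouse 1, at -0.37 ± 0.14 and -0.38 ± 0.14 (adjusted p = 0.0346 and 0.0219), and the latter turned to 0.06 under scaling to the 75th percentile.

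A further 25 tested probes read 18 of these genes. The brightest and a further probe were both called in 6, 9 and 11 cases for mouse 5 against 1, 7 against 1 and 7 against 5, with opposite signs in 0, 4 and 4. For Rpl31, mouse 7 against mouse 1 gave -0.49 by the brightest probe and 1.21 and 2.18 by the others. For Rps24 it gave -0.82 by the brightest and -1.48 and 2.40 by the others, the last probe being detected on 1 of 3 untreated arrays of mouse 1. For Rps3 both probes were lower, at -0.78 and -1.09. Differences of single genes here are thus those of 1 probe.

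Genes that act around the ribosome were described from lists, with 0 genes called with shRNA across mice or within any mouse label in the lists of elongation factors and other TOP mRNAs (17 tested), ribosome biogenesis (19), RNA polymerase I (12), mTORC1 and translation control (19) and mitochondrial ribosomal proteins (74). Their medians across mice ran from -0.08 to 0.04. Counts of these lists between untreated cells are to be read against the 42%, 55.9% and 63.6% of all probes called in mouse 5 against 1, 7 against 1 and 7 against 5. The TOP list had 8 higher and 3 lower in mouse 5 than in mouse 1, 2 and 7 in mouse 7 against mouse 1, and 2 and 11 in mouse 7 against mouse 5. Tpt1, a growth-related TOP mRNA, was lower in mouse 7 than in mice 1 and 5, at -4.75 ± 0.15 and -5.77 ± 0.15 (adjusted p = 2.07e-15 and 1.06e-16, detected on 1 of 3 untreated arrays of mouse 7). Pabpc1, the cytoplasmic poly(A)-binding protein, was lower in mice 5 and 7 than in mouse 1, at -1.48 ± 0.14 and -1.93 ± 0.14 (adjusted p = 5.59e-08 and 7.27e-10). Eef1d, an exchange factor of elongation, was higher in both, by 1.07 ± 0.10 and 0.83 ± 0.10 (adjusted p = 6.27e-08 and 1.07e-06).

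Of the biogenesis genes 4 were higher and 3 lower in mouse 5 than in mouse 1, 6 and 2 in mouse 7 against mouse 1, and 3 and 5 in mouse 7 against mouse 5. Rcl1, a factor of 18S rRNA processing, was higher in mouse 7 than in mice 1 and 5 by 2.81 ± 0.21 and 3.74 ± 0.21 (adjusted p = 1.5e-09 and 1.49e-11). Rrp12, which aids export of pre-ribosomes, was higher in mouse 5 than in mouse 1 by 1.78 ± 0.24 (adjusted p = 5.41e-06). In the RNA polymerase I list 1 gene was higher and 2 lower, 2 and 4, and 2 and 4 in the same 3 comparisons. Rrn3, the initiation factor of that polymerase, was lower in mouse 7 than in mice 1 and 5, at -1.87 ± 0.15 and -1.96 ± 0.15 (adjusted p = 3.1e-09 and 1.1e-09).

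For mTORC1 and translation control the counts were 7 higher and 4 lower, 2 and 8, and 5 and 9. Eef2k, the kinase that slows elongation, was higher in mouse 5 than in mouse 1 by 2.0 ± 0.19 (adjusted p = 6.07e-08). Mtor itself was lower in mouse 7 than in mouse 1, at -1.97 ± 0.17 (adjusted p = 7.28e-09), and its inhibitor Tsc1 was lower in mouse 7 than in mouse 5, at -2.59 ± 0.20 (adjusted p = 1.48e-09, detected on 1 of 3 arrays there). Among 74 mitochondrial ribosomal proteins the counts were 10 higher and 34 lower, 8 and 38, and 20 and 34, with medians of -0.30, -0.39 and -0.23 against -0.15, -0.04 and 0.20 for the cytosolic members. Mrps15, of the mitochondrial small subunit, was lower in mouse 7 than in mouse 5, at -2.61 ± 0.14 (adjusted p = 4.1e-12), and Mrpl49 was lower in mouse 5 than in mouse 1, at -2.25 ± 0.15 (adjusted p = 3.68e-10). The cytosolic gene Rpl36al, which the name rule leaves out, was higher in mouse 7 than in mice 1 and 5 by 1.13 ± 0.09 and 0.98 ± 0.09 (adjusted p = 5.15e-09 and 2.9e-08).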

How the data were processed

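RNA of 18 samples was hybridised to Illumina mouse bead arrays after amplification with an Ambion kit, per the labels. The deposited table gave a signal intensity per probe and array, with some values below 0 as after background subtraction, and a deposited detection p-value. The deposited series matrix, a further intensity on a linear scale, served as an alternative only. The authors' software and its settings are not given in the sources used here. The array number limits the precision: 3 per group. Arrays had 17289 to 19993 probes detected and mean signals of 181 to 294.

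Background correction of the deposited intensity used the detection p-values (neqc in limma 3.58.1, offset 16, R 4.3.3), followed by log2 and quantile normalisation. Probes with a detection p below 0.05 on at least 3 arrays were tested, 24817 in all, with lmFit and eBayes with trend, two-sided, and Benjamini-Hochberg adjustment over all of them (threshold 0.05). The effect across mice was fitted on 6 profiles, the group means, with mouse label as block, since the labels give both arms the same mouse number, although Xist and Eif2s3y show that labels 1 and 5 mix animals. The other comparisons used 18 arrays, 6 group means and a shared spread. An SE is limma's moderated SE, and overlap was read on normalised values unless raw signals are named. A lower bound of a fold sets the brighter group's mean against the lowest detected signal per array or the probe's own, whichever is higher. Irregular values were found for 46 probes, 0 of them among the members' probes.

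Named members were the paralogues and, where in the set, their common copies, the stalk genes, Rps6 and members called across mice. The common copies Rps27 and Rpl7 were not in the set. Also named were up to 5 called members per direction and comparison whose groups did not overlap, and 6 of the interaction. From each list up to 3 called genes of largest size were to be named. Others, such as Rps2, Rps3, Rps15, Eef1d, Mtor, Mrpl49 and members named in counts, were chosen after their values were seen. The members and lists were chosen with earlier results of these data known. Gene names came from the platform annotation, in which 34885 probes have 1 symbol, 18 several and 10378 none, and promoter sequences and gene positions from RefSeq, GRCm38.p6. On simulated data, the fit within mouse 1 recovered 18% of changes of 0.5 and 85% of changes of 1. It made 7 false calls among 24817 probes, and the fit across mice made 9. Both simulations gave a probe the same level and spread in all groups. Alternatives were no background correction, 75th percentile scaling, the series matrix, no filter, all probes of a gene, no irregular probes, the arrays split by Xist, the block and single arrays left out.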

Additional observations from a re-analysis of the deposited data

How the results depend on the processing

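Among named members, 308 values kept direction and side of the threshold under the other settings, 18 lost the call and 2 turned. Settings that altered only the detection filter, the irregular probes or the block left a member's change as it was. There only the call could differ, so part of the 308 kept its direction by design. With 1 array or mouse left out, 236 values kept direction and side of the threshold and 10 lost the call. Without untreated arrays 1 and 3 of mice 1 and 5 the members called were 12 within mouse 1 (median -0.35), 9 within mouse 5 (median -0.23), 6 in the interaction and 15 for mouse 5 against 1, and the median of mouse 7 against 5 turned to -0.0723. Without untreated array 2 the interaction called 1. The series matrix called 15 of 57 members for mouse 5 against 1, 16 for mouse 7 against 1 and 16 for mouse 7 against 5. Of all probes it called 30.1%, 45.8% and 54.8%, so the shares of members lay below the background. Scaling to the 75th percentile gave medians of 0.27 and 0.53 for mouse 7 against 1 and 5, and turned Rpl39 to 0.064 and Rpl22 to 0.0259 in these. The causes were not tested, apart from the smaller groups in fits that left out arrays.

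Leaving out 1 mouse or array gave medians of -0.07 to 0.03 across mice with 0 members called. It gave -0.21 to -0.08 within mouse 1 with 0 to 1 called, against 0.282% to 1.57% of all probes. Within mouse 5 it gave -0.08 to 0.14 with 0 called, against 0.254% to 1.06% of all probes. Within mouse 7 it gave -0.04 to 0.10 with 0 called, against 0.379% to 1.55% of all probes. The interaction called 0 to 1. For mouse 5 against 1 the medians were -0.27 to -0.07 with 19 to 31 of 57 called, against 38.5% to 40.9% of all probes. For mouse 7 against 1 they were -0.09 to 0.05 with 21 to 26 called, against 50.9% to 52.9% of all probes. For mouse 7 against 5 they were 0.11 to 0.30 with 26 to 39 called, against 58.8% to 61.4% of all probes. A lone array left in a group was assumed to vary like the other groups.

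Array numbers were not taken to pair the arms, as deviations of same-numbered arrays correlated at -0.02 to 0.26, not all above 0.1. Differently numbered arrays were not set beside them, so these values cannot decide whether the arms were paired. With the array number as a replicate block, 1, 0 and 0 members were called within mice 1, 5 and 7, and 24, 27 and 33 between untreated cells. Of all probes, 1.01%, 0.27% and 0.854% were called with this block within mice 1, 5 and 7. Between untreated cells 42.2%, 56.2% and 64% were. Across mice, the fit with no replicate block called 0 members and 0 of all probes, and kept the median of -0.03. Probes near background, such as those of Rps23, Rps15a, Rpl39l and Rplp0, have log2 differences that depend on the offset of 16.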

Other observations

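A second probe of Rpl29, detected on 17 of 18 arrays, had signals of 16.1 on shFoxd3 array 3 of mouse 1 and 10.7 on shFoxd3 array 3 of mouse 5, against 249 to 1206 on the other 16 arrays. The brightest Rpl29 probe read 826 and 1368 on those 2 arrays, the lowest of their groups, with 1082 to 1438 and 1378 to 1916 on the other shFoxd3 arrays. A second Rps19 probe, dim with a mean signal of 55.9, had signals of 113 to 150.0 on the untreated arrays of mouse 1 and was not detected in mouse 5, with 0.0533 to 7.74, where the brightest Rps19 probe gave a log2 difference of -0.54. A dimmer Rpl23 probe, with a mean signal of 469.8, was higher in mouse 7 than in mouse 1 by 2.15, while the brightest gave -0.07.

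Translation factors of tissue type followed the same split of the mouse labels as Rpl3l. Eef1a2 had untreated signals of -10.6, 395 and 3.53 in mouse 1, 10113, 11000.4 and 8509.6 in mouse 5, and 29.1, 6.82 and 10.6 in mouse 7. Its common copy Eef1a1 had 22550.0, 22395 and 21008 in mouse 1, 9448, 13426 and 9040.0 in mouse 5, and 23526, 23112 and 19445 in mouse 7. Mouse 5 was thus high for Eef1a2 and low for Eef1a1, without overlap in raw signal with the other labels.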
